A study of Equus caballus with 45 samples.

Results

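The 6 genes described here encode ISG15 and the enzymes that attach it to other proteins and remove it again. They are ISG15, UBA7, UBE2L6, HERC5, HERC6 and USP18, chosen by their known roles and found by symbol among the 20881 genes of the deposited count tables, 3970 of which are listed by an Ensembl identifier alone. All 6 were present, and each was read in all 45 libraries of an equine RNA sequencing study of mesenchymal stromal cells (MSC) and of joint cells given medium conditioned by those MSC. The tables name the 6 genes by symbol only, with no coordinates.

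ISG15 is a small ubiquitin-like protein that cells make in quantity after exposure to type I interferon. UBA7 is the E1 enzyme that activates it, UBE2L6 is the E2 enzyme that carries it, and HERC5 and HERC6 are ligases that place it on target proteins, HERC5 being the main ligase of human cells and HERC6 that of mice. USP18 cleaves ISG15 from its targets and also damps signalling at the type I interferon receptor by binding its IFNAR2 chain. Transcription of all of these genes is known to respond to type I interferon signalling, in which STAT2 and IRF9 take part. Cells can reach that state after sensing double-stranded RNA through TLR3 or cyclic dinucleotides through STING.

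Bone marrow MSC of 3 horses, labelled PC, 99 and 92, were left untreated or given polyinosinic:polycytidylic acid (a TLR3 agonist), 2′3′-cGAMP (a STING agonist) or a treatment that the labels call CPG, for 2 h, and were then cultured for 24 h. The sample labels put both agonists at 10 ng/mL, while the design text and the study's methods put them at 10 µg/mL, and for CPG no dose is given. Each of these 4 MSC groups had 3 libraries, 1 per donor. Synoviocytes, chondrocytes and monocyte-derived macrophages, the cells of a type all coming from 1 healthy horse, received the inflammatory cytokines IL-1β and TNF-α and medium of resting MSC (resting MSC-CM), of TLR3-activated MSC (TLR-MSC-CM) or of STING-activated MSC (STING-MSC-CM) for 24 h, and were then washed and cultured for another 24 h. The study's methods read as if cytokines and medium were given together. Its abstract instead has the cytokines given for 2 h and washed off before the medium. The labels put each cytokine at 20 ng/mL for synoviocytes and at 10 ng/mL for macrophages. They give no dose for chondrocytes with medium or cytokines, and the study's methods give 20 ng/mL. Each of these 9 groups had 3 libraries, whose media came from MSC donors labelled PC, ORC and AG1, so the 3 libraries differed in the donor of the medium and not in the horse that gave the cells. Only the label PC is shared with the MSC libraries. Each joint cell type also had 1 library with neither cytokines nor medium and 1 with the cytokines alone.

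Library totals ran from 23525704 to 54103873 counts. Levels below are CPM, a gene's counts divided by the total count of the library and put on the usual CPM scale, a floor of 3 counts corresponding to 0.0554 to 0.128 CPM. Macrophage libraries expressed CD68 at 3541 to 4303 CPM and PTPRC at 1085 to 1576 CPM. Chondrocyte libraries expressed ACAN at 6.12 to 101 CPM and COMP at 15.6 to 170 CPM, but COL2A1 at no more than 0.368 CPM and MATN3 at no more than 0.675 CPM, so the defining collagen of cartilage was at or near 0. Because the samples are bulk RNA, fewer cells of a type and less RNA per cell cannot be told apart. A group of libraries stood apart before any comparison of the 6 genes. The MSC library labelled with the TLR3 agonist of donor 92 differed from untreated MSC of that donor by at least 2-fold at 12 of 11822 genes, against 223 in donor PC and 727 in donor 99. A donor that did not respond and a library that was not treated as labelled cannot be told apart here, and every TLR3 value of donor 92 below carries that doubt. In chondrocytes, the 3 libraries with medium of donor ORC differed from the other 6 whatever the medium. CXCL8, a neutrophil chemokine, was at 34.3 to 181 CPM against 887 to 3376 CPM. VCAM1 was at 18.8 to 30.1 CPM against 234 to 281 CPM. SOX9, a cartilage transcription factor, was at 42.1 to 67.6 CPM against 7.53 to 10.6 CPM. The sum of 4 synoviocyte markers was 27519 to 30026 CPM in these 3 libraries and 14523 to 17314 CPM in the other 6. It was 30999 CPM in chondrocytes with no addition and 12725 CPM with cytokines alone. COL1A1 (10338 to 25183 CPM over the chondrocyte libraries) and VIM (2278 to 5705 CPM) made up nearly all of it. The same sum was 29217 to 51286 CPM in MSC, so it does not mark synoviocytes alone. CD55, another of the 4, went the other way, being at 0 in these 3 libraries and above 0 in the other 6. Whether the cytokines reached these 3 libraries as described was not tested, and their values carry that doubt. The main tests that rest on these libraries are also given without them.

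The first comparison asked how far the ISG15 system of MSC responded to the 2 agonists. All 6 genes were many times higher in 5 of the 6 agonist-treated libraries than in untreated MSC. The exception was the library of donor 92 with the TLR3 agonist, in which all 6 stayed near the untreated level. ISG15, HERC6 and USP18 had the largest fitted differences, and UBA7 and UBE2L6 the smallest.

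ISG15 itself was at 8.11, 7.58 and 14.3 CPM in untreated MSC of donors PC, 99 and 92. With the TLR3 agonist it was at 1976, 1265 and 9.55 CPM in the same donor order. With the STING agonist it was at 1513, 2321 and 758 CPM. Every STING library was thus above every untreated library, while the TLR3 group overlapped the untreated group through donor 92 alone. Within a donor, the STING level was 187 times the untreated level in PC, 306 times in 99 and 53.0 times in 92. The TLR3 level was 244 times the untreated level in PC, 167 times in 99 and 0.668 times in 92. ISG15 reads made up 9.42% to 77.9% of the reads of the 6 genes over all 45 libraries, and 59.1% to 77.9% in the 5 responding MSC libraries.

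UBA7, the activating enzyme, was at 7.88, 10.1 and 2.26 CPM in untreated MSC of donors PC, 99 and 92. It was at 89.2, 46.8 and 3.33 CPM with the TLR3 agonist and at 61.0, 70.4 and 28.5 CPM with the STING agonist. Donor 92 had the lowest level of this enzyme under all 3 conditions, and its STING library was still above all 3 untreated libraries.

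UBE2L6, the carrier enzyme, was at 20.4, 20.9 and 10.3 CPM untreated in the same donor order. It was at 150, 109 and 8.95 CPM with the TLR3 agonist and at 130, 152 and 90.9 CPM with the STING agonist. These steps were smaller than those of ISG15, the donor ratios of STING to untreated lying between 6.41 and 8.81 for UBE2L6 and between 6.996 and 12.6 for UBA7. As a result the ratio of ISG15 to UBE2L6 reads within a library moved from 0.363 to 1.38 in untreated MSC to 8.34 to 15.3 with the STING agonist, 2 ranges that do not overlap.

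HERC5, the first of the ligases, was at 0.686, 1.38 and 1.45 CPM in untreated MSC of donors PC, 99 and 92. It was at 53.7, 22.3 and 1.85 CPM with the TLR3 agonist and at 33.5, 32.8 and 23.9 CPM with the STING agonist. HERC5 was the one gene of the 6 whose TLR3 and untreated libraries did not overlap, by a margin of 1.85 against 1.45 CPM in donor 92.

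HERC6, the other ligase, was at 0.360, 0.830 and 2.96 CPM untreated. It was at 315, 137 and 2.30 CPM with the TLR3 agonist and at 294, 295 and 292 CPM with the STING agonist. The 3 STING libraries thus lay within 1.01-fold of each other, although the untreated libraries of the same donors spanned 8.23-fold. That spread carried into the donor ratios of STING to untreated, which were 819 in PC, 356 in 99 and 98.7 in 92.

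USP18, the enzyme that removes ISG15, was at 0.261, 2.43 and 3.00 CPM untreated. It was at 119, 59.4 and 2.10 CPM with the TLR3 agonist and at 94.8, 107 and 90.0 CPM with the STING agonist. Its STING libraries lay within 1.18-fold of each other and its untreated libraries spanned 11.5-fold, donor PC being the lowest of the untreated and, with the TLR3 agonist, the highest. The plot of the MSC levels by gene shows this pattern. The summed level of 8 macrophage markers moved with the 6 genes, at 12.7 to 15.9 CPM untreated, at 139, 115 and 10.9 CPM with the TLR3 agonist and at 196, 324 and 54.5 CPM with the STING agonist in donors PC, 99 and 92. CD68, a lysosomal protein, carried nearly all of it, while PTPRC, the pan-leukocyte marker, and CD34 together did not exceed 1.54 CPM in any MSC library, against at least 1085 CPM of PTPRC in macrophages.

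**Figure D1:**
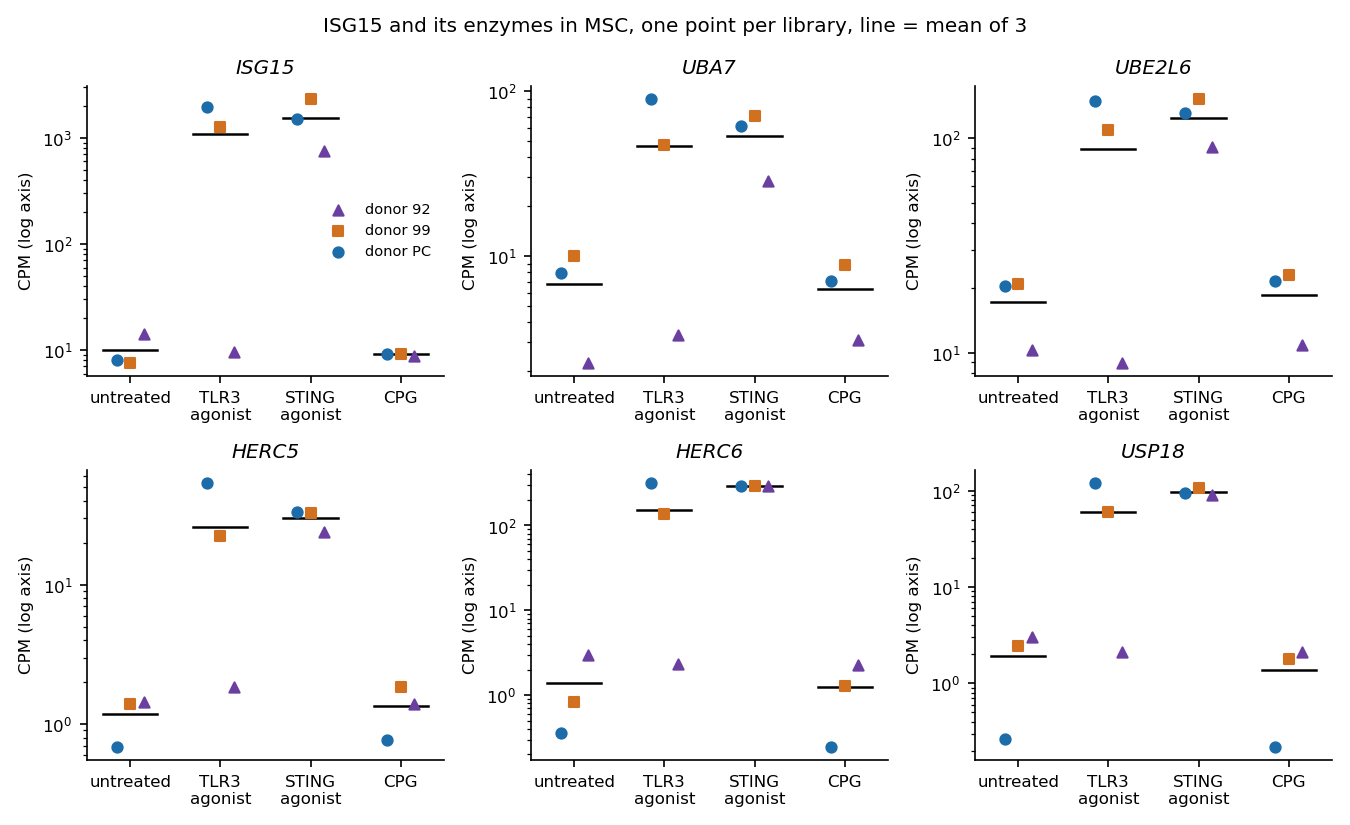
Levels of the 6 genes in the 12 MSC libraries, in CPM on a log axis, with a panel for each gene, the treatments along the horizontal axis and the donors told apart by marker. The TLR3 library of donor 92 sits with the untreated libraries in all 6 panels, and the STING libraries of all 3 donors lie above every untreated library, closest together for HERC6 at 292 to 295 CPM.

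With the TLR3 agonist, the fitted log2 fold change over untreated was 6.84 (SE 1.57) for ISG15, 2.85 (SE 1.03) for UBA7, 2.45 (SE 0.83) for UBE2L6, 4.52 (SE 1.01) for HERC5, 6.81 (SE 1.57) for HERC6 and 5.03 (SE 1.32) for USP18. The edgeR quasi-likelihood test called 0 of the 6 after Benjamini-Hochberg adjustment over all genes, and 0% of the 14872 genes tested. All 6 had an unadjusted p under 0.05, against 1.15% of all genes, and all 6 passed the thresholds the study used for its gene lists (unadjusted p no higher than 0.05, with a log2 fold change reaching 2), against 0.719% of all genes that passed them on the higher side. DESeq2 called 4 of the 6 (ISG15, HERC5, HERC6 and USP18), against 0.35% of all genes, and 1 of the 6 did not overlap between the groups on the higher side, against 0.867%. Among all genes ranked by p, HERC5 stood at 1, ISG15 at 2, HERC6 at 3, USP18 at 27, UBE2L6 at 88 and UBA7 at 111. Without the TLR3 library of donor 92, edgeR called 5 of the 6, against 0.345% of all genes. The log2 fold change was then 7.39 for ISG15 (SE 0.61, adjusted p 0.0059), 2.97 for UBE2L6, 5.04 for HERC5, 7.35 for HERC6 and 5.57 for USP18, while UBA7, at 3.38, stayed above the threshold with an adjusted p of 0.173.

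With the STING agonist, the fitted log2 fold change over untreated was 7.26 (SE 1.60) for ISG15, 2.98 (SE 1.03) for UBA7, 2.85 (SE 0.84) for UBE2L6, 4.66 (SE 1.02) for HERC5, 7.69 (SE 1.63) for HERC6 and 5.65 (SE 1.36) for USP18. All 6 genes were higher in 3 of 3 donors and none of the 6 overlapped the untreated group, against 4.03% of all genes. EdgeR again called 0 of the 6, and 0% of all genes, with unadjusted p under 0.05 for all 6 against 2.1% and with all 6 past the thresholds of the study against 0.914%. DESeq2 called 5 of the 6, against 0.639%, and left UBA7 out with an adjusted p of 0.141. With the donor as a replicate block DESeq2 called UBA7 as well (adjusted p 0.0018), and so 6 of the 6, while with that block it called 3 of the 6 in the TLR3 comparison (ISG15, HERC5 and HERC6). The share of all genes called with that block was not computed, so these counts have no background beside them. The median log2 fold change of the 6 was 4.78 with the TLR3 agonist and 5.15 with the STING agonist, where the median over all genes tested was 0.02 and 0.01. The fit shares 1 estimate of the spread over the 9 libraries. When the TLR3 library of donor 92 was left out of it, a choice made after seeing the data, edgeR called 5 of the 6 in the STING comparison, against 0.366% of all genes, with 7.24 for ISG15 (SE 0.60, adjusted p 0.00523) and 2.97 for UBA7 (SE 0.61, adjusted p 0.23). Both comparisons also share their 3 untreated libraries.

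The STING and TLR3 libraries were then compared directly. The fitted log2 difference of STING over TLR3 lay between 0.13 for UBA7 and 0.88 for HERC6, that of ISG15 was 0.42 with a 95% interval of -2.35 to 3.20, and the groups overlapped for all 6 genes. EdgeR called 0 of 6 with 0 of 6 at an unadjusted p under 0.05, where 0.242% of all genes had one, and DESeq2 called 0 of 6 and 0.00672% of all genes. None of the 6 passed the thresholds of the study, against 0.182%. The direction differed between donors. In donor 99 the STING level was 1.39 to 2.16 times the TLR3 level over the 6 genes, in donor PC it was 0.625 to 0.935 times, and in donor 92, whose TLR3 library was near the untreated one, it was 8.58 to 127 times. Without that library the sign turned for ISG15 (-0.15), UBA7 (-0.42), UBE2L6 (-0.14) and HERC5 (-0.41).

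None of the 6 genes separated MSC given CPG from untreated MSC. Over 11822 genes, the CPG library of donor 92 differed from its untreated library by at least 2-fold at 234, of which 178 were lower. The same count was 12 in donor PC and 10 in donor 99. ISG15 was at 9.19, 9.25 and 8.82 CPM in donors PC, 99 and 92. HERC6 was at 0.246, 1.28 and 2.24 CPM and USP18 at 0.219, 1.79 and 2.09 CPM, in the same donor order as the untreated libraries, and the groups overlapped for all 6 genes. Over the 6 genes the fitted log2 difference from untreated lay between -0.50 for USP18 and 0.17 for HERC5, that of ISG15 being -0.14 (SE 1.10) and those of UBA7, UBE2L6 and HERC6 being -0.09, 0.10 and -0.17. EdgeR called 0 of 6 with 0 of 6 at an unadjusted p under 0.05, against 0.305% of all genes, DESeq2 called 0 of 6, and 0 of 6 passed the thresholds of the study, against 0.225%.

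**Figure D2:**
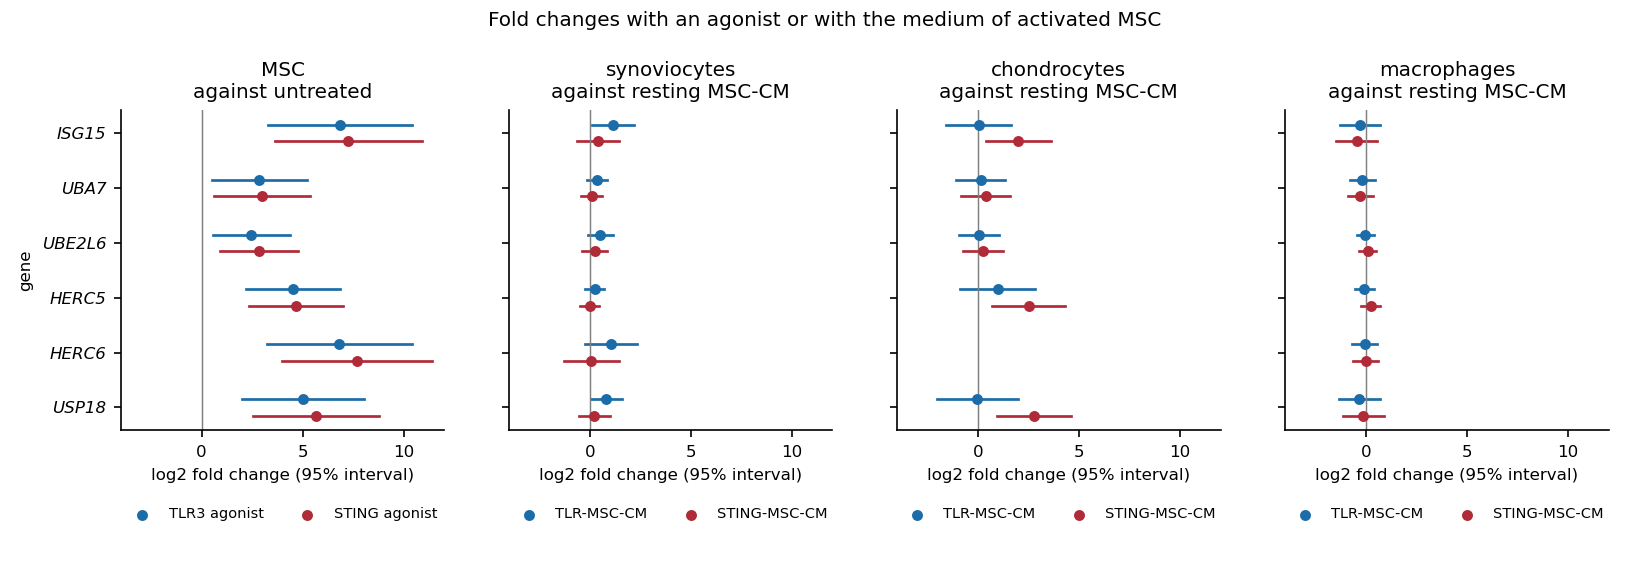
Fitted log2 fold changes of the 6 genes with 95% intervals from edgeR, for the MSC comparisons and for the joint cells given TLR-MSC-CM or STING-MSC-CM against resting MSC-CM, HERC6 being left out in chondrocytes because its counts there were at or near the floor. The intervals lie above 0 for all 6 genes with both agonists in MSC, and in joint cells the ISG15 estimate is largest in chondrocytes with STING-MSC-CM at 1.99.

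The responding libraries differed in how the 2 ligases were represented. HERC5 and HERC6 are neighbours in the genome and are related in sequence, and whether reads that fit both were lost from the counts was not tested. For each read of HERC5 there were 0.524, 0.600 and 2.04 reads of HERC6 in untreated MSC of donors PC, 99 and 92. The ratio was 5.87, 6.12 and 1.25 with the TLR3 agonist and 8.78, 9.01 and 12.2 with the STING agonist. The STING ratios were thus above all other MSC libraries, and the TLR3 ratios of donors PC and 99 lay between those and the untreated ones, while that of donor 92 lay within the untreated range. In the 9 macrophage libraries with conditioned medium the ratio held between 3.26 and 4.46, and in the 9 synoviocyte libraries between 0.260 and 1.24, the highest of these belonging to the synoviocyte library with TLR-MSC-CM of donor ORC. These ratios compare the same pair of genes between libraries and say nothing of which ligase was more abundant per transcript.

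**Figure D3:**
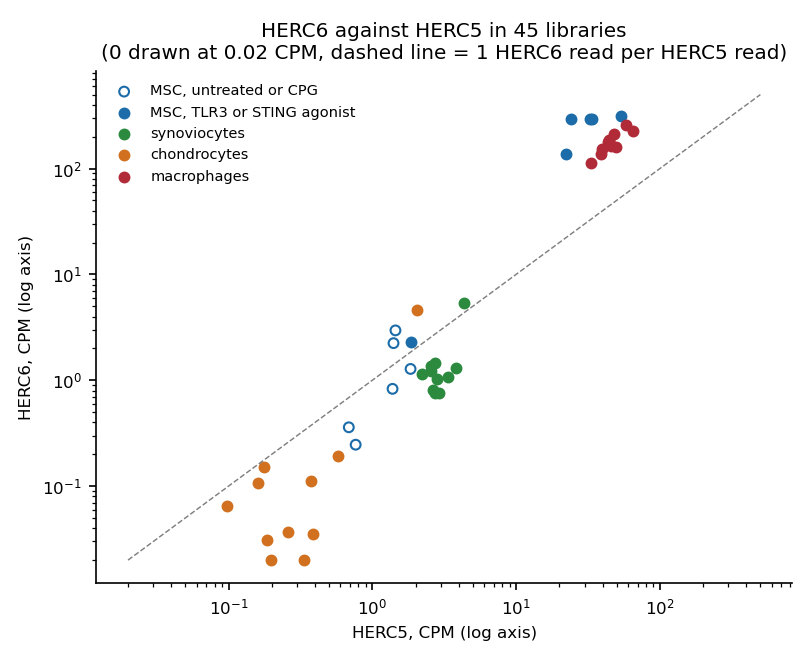
HERC6 against HERC5 in every library, both in CPM on log axes, with cell types told apart by colour and untreated or CPG-treated MSC drawn open, a dashed line where 1 HERC6 read falls to each HERC5 read, and a level of 0 drawn at 0.02 CPM. STING-treated MSC lie farthest above the line at 8.78 to 12.2 HERC6 reads per HERC5 read, macrophages at 3.26 to 4.46, and most synoviocyte and chondrocyte libraries lie below it.

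Other genes of the pathway were read from lists chosen with earlier results of these data known. Of 4 transcription factors of these promoters, IRF9 and IRF7 passed the thresholds of the study with both agonists, and IRF1 and IRF3 with neither. Of all genes 0.719% passed them on the higher side with the TLR3 agonist and 0.914% with the STING agonist. IRF7, which amplifies interferon production, was at 11.7, 17.6 and 5.24 CPM in untreated MSC of donors PC, 99 and 92, at 854, 490 and 5.43 CPM with the TLR3 agonist and at 1355, 2244 and 454 CPM with the STING agonist. The STING libraries did not overlap the untreated ones, where 4.03% of all genes lay wholly higher, and donor 92 again stayed at its untreated level with the TLR3 agonist. The log2 fold changes with the TLR3 and STING agonists were 5.36 and 6.88 for IRF7 and 2.60 and 3.07 for IRF9. DESeq2 called IRF7 and IRF9 in both comparisons, against 0.35% of all genes with the TLR3 agonist and 0.639% with the STING agonist.

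STAT2, which also holds USP18 at the interferon receptor, had log2 fold changes of 1.34 and 1.55 with unadjusted p of 0.042 and 0.023 in the edgeR fit, its 3 STING libraries at 105, 62.3 and 72.5 CPM lying above the untreated 32.1, 26.2 and 22.6 CPM. The receptor chains IFNAR1 and IFNAR2 had log2 differences between -0.54 and -0.42 and unadjusted p of 0.16 to 0.52. TRIM25, another ligase reported to use ISG15, was at 22.2, 7.43 and 16.0 CPM with the STING agonist against 6.54, 5.92 and 3.87 CPM untreated, a difference of 1.46 on the log2 scale with an unadjusted p of 0.059 although the groups did not overlap. STAT2 and TRIM25 thus stand beside the 4.03% of all genes that lay wholly higher with the STING agonist. ITGAL, a chain of the integrin LFA-1 through which secreted ISG15 acts on lymphocytes, went the other way with the STING agonist. It was at 0.441, 0.231 and 0.315 CPM against 2.45, 1.08 and 0.497 CPM untreated, a log2 fold change of -2.03 (unadjusted p 0.018), where 0.121% of all genes passed the thresholds of the study on the lower side. These are 9 to 75 counts per library.

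The remaining pathway genes did not separate. Of 7 other proteases said to act on ISG15 (USP2, USP5, USP13, USP14, USP16, USP21 and USP24), 0 passed the thresholds of the study and 0 had an unadjusted p under 0.05 with either agonist. The same held for the 7 tested of 8 listed paralogues of the 6 genes, most of which serve ubiquitin (UBA1, UBA3, UBA6, HERC1, HERC2, HERC3 and HERC4), whose log2 differences lay between -0.26 and 0.26. In neither list did edgeR or DESeq2 call a gene. Of the ligases and minor E2 enzymes, 3 of 4 listed were tested and 0 passed the thresholds of the study, ARIH1 and UBE2E1 having log2 differences of 0.02 to 0.11. ITGB2, the other chain of LFA-1, had -0.74 with the STING agonist. The plot of the pathway lists sets these values beside those of the 6 genes.

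**Figure D4:**
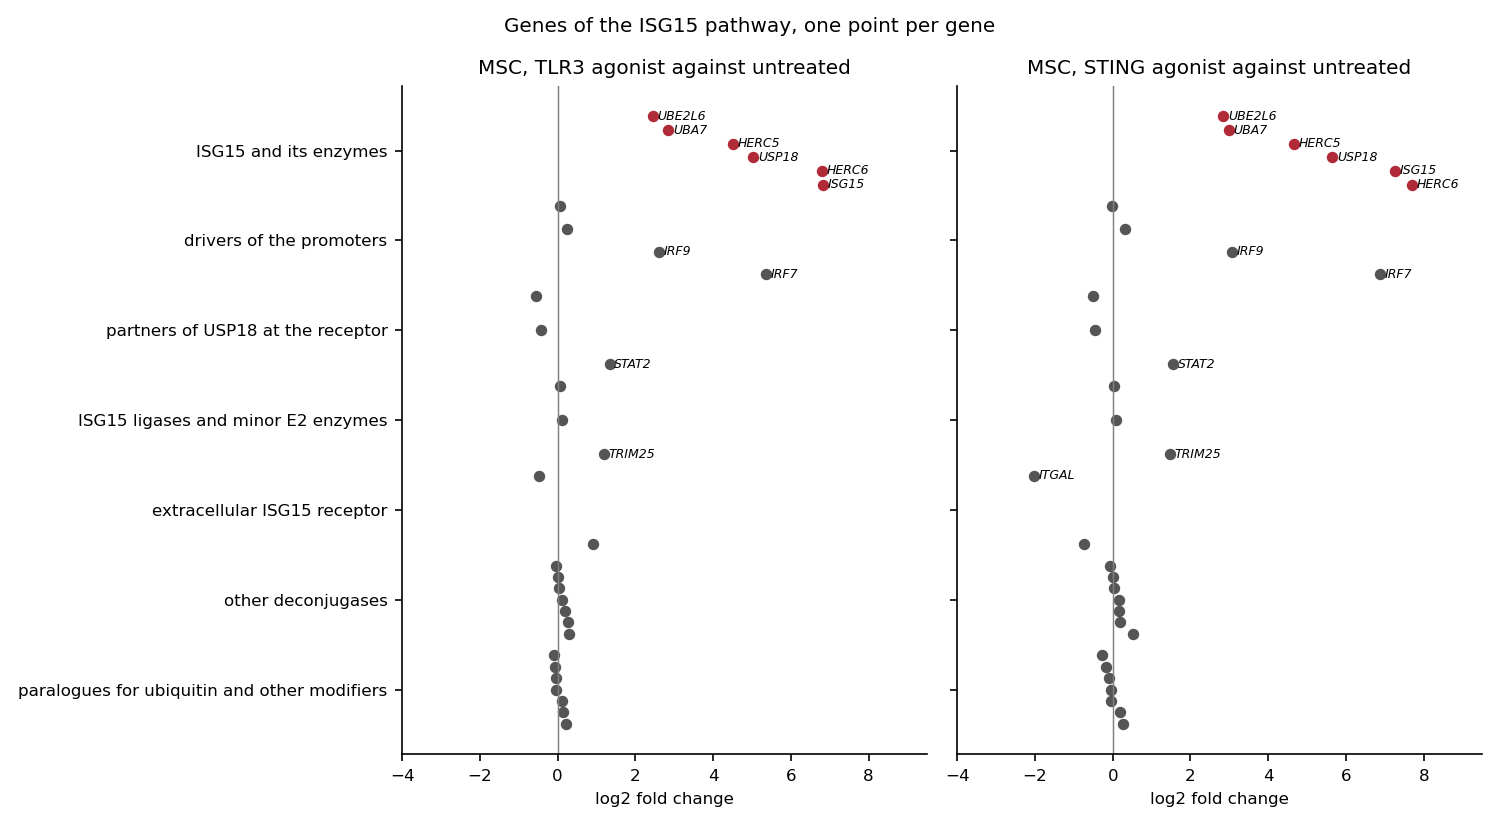
Log2 fold changes over untreated MSC of every tested gene of the pathway lists, with the TLR3 agonist and with the STING agonist, each point being a gene and each row a list. The 6 genes lie between 2.45 and 7.69, IRF9 and IRF7 between 2.60 and 6.88, and the 7 other proteases and the 7 paralogues close to 0.

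The protein-coding genes that flank each of the 6 in the RefSeq order were also read, a choice made after values had been seen. Next to ISG15, AGRN, a matrix proteoglycan of the neuromuscular junction, had log2 fold changes of 2.04 and 2.37 with the TLR3 and STING agonists, and HES4, a transcriptional repressor on the other side, of 2.91 and 2.53. Next to UBE2L6, SMTNL1, a smoothelin-like muscle protein, had 2.50 and 3.12, and SERPING1, the C1 inhibitor of complement, 0.51 and 1.24. Both neighbours of ISG15 and both neighbours of UBE2L6 lay wholly above the untreated group with the STING agonist, as did 4.03% of all genes, and overlapped it with the TLR3 agonist. The flanking genes of UBA7 (TRAIP and INKA1), of the HERC5 and HERC6 pair (PIGY and PPM1K) and of USP18 (TUBA8) had log2 differences between -0.06 and 0.50 with unadjusted p of 0.30 or more. DESeq2 called AGRN and SMTNL1 with the STING agonist, with adjusted p of 0.0314 and 0.0258, against 0.639% of all genes called. Whether reads or transcripts running past the end of a gene take part was not tested.

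The genes most like ISG15 were sought by Pearson correlation on log2(CPM + 1). Over the 12 MSC libraries and 11822 genes with a mean of at least 1 CPM, the 5 highest were ZBP1, a sensor of left-handed nucleic acid (r = 0.997), RTP4, an interferon-induced chaperone (0.997), ENSECAG00000000910 (0.995), IFI44 (0.994) and IRF9 (0.994). Of the other conjugation genes, HERC5 ranked at 16 (0.988), HERC6 at 18 (0.987), USP18 at 29 (0.980), UBE2L6 at 68 (0.956) and UBA7 at 91 (0.932). Over the 33 joint cell libraries, each centred on the mean of its cell type, the 5 highest of 12461 genes were IFI44 (0.933), IRF9 (0.913), ENSECAG00000033029 (0.897), MX1, an antiviral GTPase (0.884), and DDX60L (0.881). HERC6 followed at 6 (0.876), HERC5 at 22 (0.771), USP18 at 24 (0.766), UBA7 at 57 (0.625) and UBE2L6 at 95 (0.552). The points share donors, libraries and untreated controls, and the correlations describe these libraries alone.

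The joint cell types were compared before the media. With resting MSC-CM, macrophages had 6 of the 6 genes higher than synoviocytes and 6 of the 6 higher than chondrocytes, where 36.6% of the 15599 genes tested were called higher in macrophages in each comparison. The cell types came from 1 horse each, so cell type and cell preparation cannot be told apart.

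ISG15 was at 66.1, 244 and 85.1 CPM in macrophages given resting MSC-CM of donors AG1, ORC and PC. It was at 5.09, 4.52 and 4.06 CPM in synoviocytes and at 3.31, 3.89 and 2.22 CPM in chondrocytes given the same media. The macrophage libraries lay above all others, by a log2 difference of 4.82 (SE 0.49) over synoviocytes with an edgeR adjusted p of 6.34e-06 and of 5.38 (SE 0.51) over chondrocytes with an adjusted p of 3.52e-06. Chondrocytes and synoviocytes did not overlap either, where 2941 of the 15599 genes lay wholly lower in chondrocytes. Their difference of -0.56 (SE 0.49) did not pass, with an edgeR adjusted p of 0.488.

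UBA7 was at 12.5, 28.6 and 14.8 CPM in macrophages, 6.25, 5.73 and 5.44 CPM in synoviocytes and 6.73, 2.14 and 5.57 CPM in chondrocytes, all with resting MSC-CM of AG1, ORC and PC. The macrophage excess of this enzyme was the smallest of the 6, at 1.65 (SE 0.39) on the log2 scale over synoviocytes and 1.92 (SE 0.39) over chondrocytes. UBE2L6 was at 41.1, 63.0 and 52.9 CPM in macrophages, 4.55, 3.60 and 5.13 CPM in synoviocytes and 15.4, 6.99 and 15.3 CPM in chondrocytes. UBE2L6 was the one gene of the 6 that was higher in chondrocytes than in synoviocytes, by 1.49 on the log2 scale (SE 0.29, adjusted p 0.00575), where 8.31% of all genes were called higher. Accordingly the ratio of UBE2L6 to UBA7 reads was 0.628 to 1.04 in the 9 synoviocyte libraries with conditioned medium and 2.23 to 3.26 in the 9 chondrocyte libraries.

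The ligases and the protease separated chondrocytes from synoviocytes in the other direction. HERC5 was at 0.160, 0.198 and 0.0977 CPM in chondrocytes against 2.75, 2.72 and 2.82 CPM in synoviocytes and 32.9, 58.0 and 44.4 CPM in macrophages. HERC6 was at 4, 0 and 2 counts in the 3 chondrocyte libraries, against 0.758, 1.47 and 1.03 CPM in synoviocytes and 114, 259 and 180 CPM in macrophages, so no fold is given for chondrocytes. USP18 was at 0.0802, 0.278 and 0.228 CPM in chondrocytes against 1.42, 1.69 and 1.21 CPM in synoviocytes and 11.1, 51.2 and 25.9 CPM in macrophages.

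For all 3 of these genes the 3 cell types did not overlap, which was common among all genes. Of the 15599 genes tested, 2941 lay wholly lower in chondrocytes than in synoviocytes. In macrophages 6177 lay wholly above synoviocytes and 6000 wholly above chondrocytes. EdgeR called HERC5, HERC6 and USP18 lower in chondrocytes than in synoviocytes, where 9.84% of all genes were called lower, with log2 differences of -4.18 (SE 0.34, adjusted p 2.4e-05) for HERC5 and -2.95 (SE 0.76, adjusted p 0.0227) for USP18. The adjusted p of USP18 was above 0.05, and up to 0.0971, in 4 of the 6 fits that left out 1 library, namely without the chondrocyte library of AG1 or PC or the synoviocyte library of AG1 or ORC. Macrophages exceeded synoviocytes by 4.00 (SE 0.22) for HERC5, 7.40 (SE 0.38) for HERC6 and 4.33 (SE 0.52) for USP18 on the log2 scale, and by 3.53 (SE 0.31) for UBE2L6. They exceeded chondrocytes by 8.18 (SE 0.31) for HERC5, 7.27 (SE 0.67) for USP18 and 2.04 (SE 0.28) for UBE2L6.

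**Figure D5:**
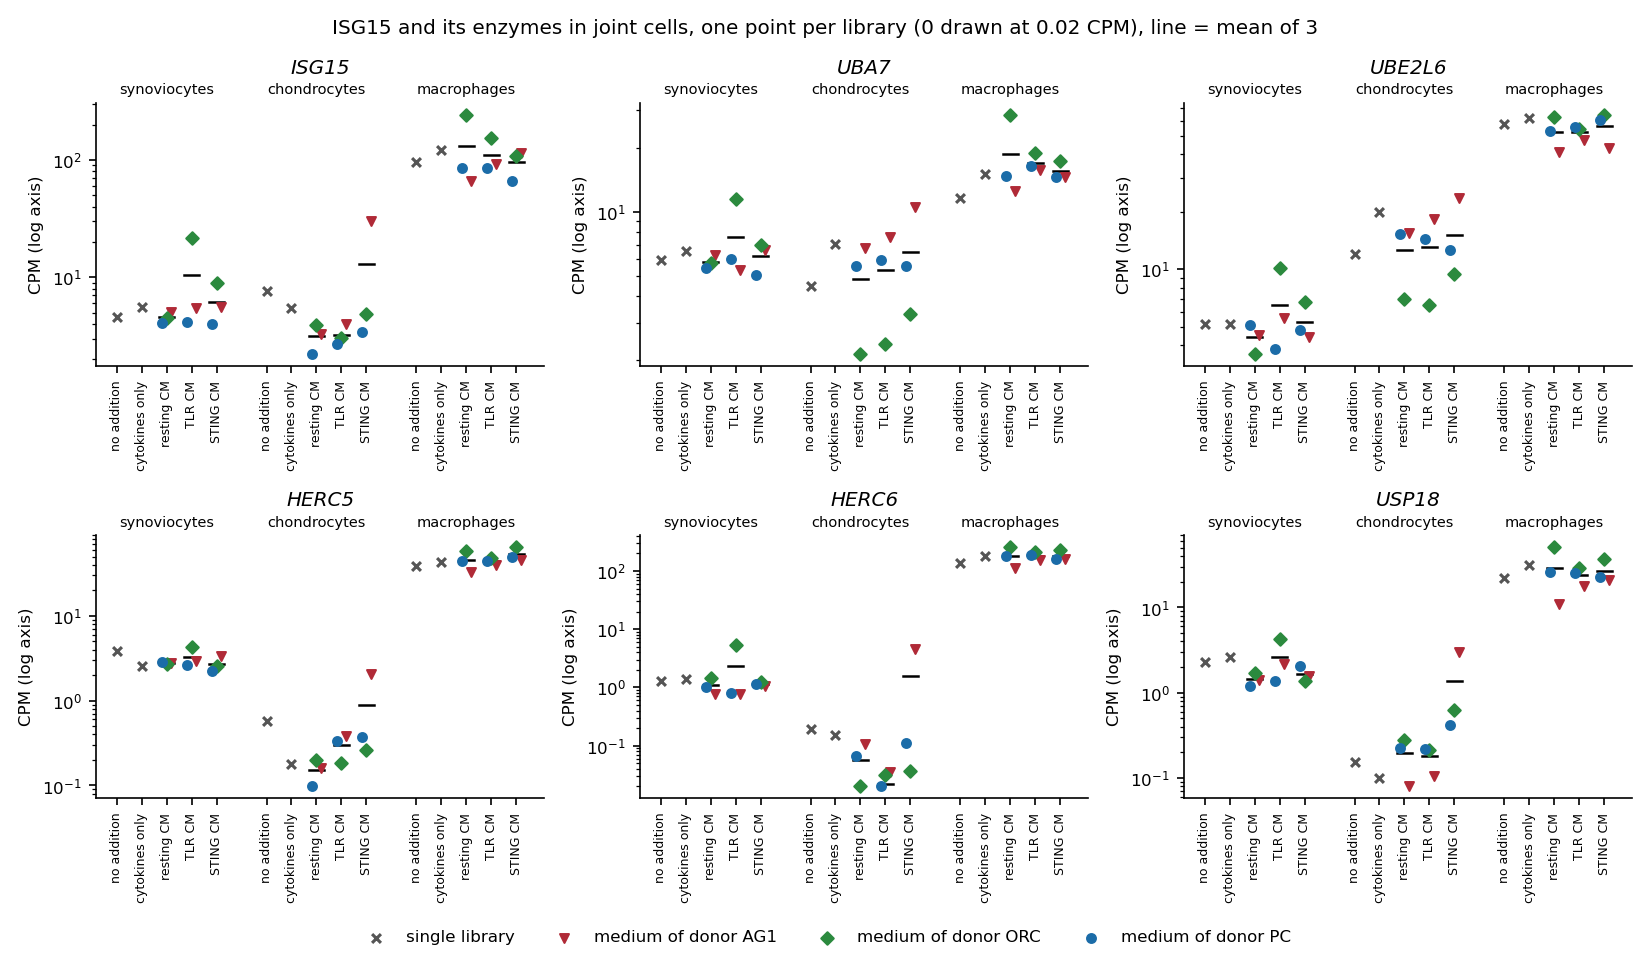
Levels of the 6 genes in the 33 joint cell libraries, in CPM on a log axis, with a panel for each gene, the cell type and medium along the horizontal axis the donor of the medium told apart by marker and a level of 0 drawn at 0.02 CPM. Macrophages lie highest in all 6 panels, and single libraries stand out in chondrocytes with STING-MSC-CM (donor AG1, ISG15 at 30.4 CPM) and in synoviocytes with TLR-MSC-CM (donor ORC, ISG15 at 21.7 CPM).

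No difference between media passed a test for the 6 genes in macrophages. ISG15 was at 93.3, 155 and 84.8 CPM with TLR-MSC-CM of donors AG1, ORC and PC and at 115, 108.1 and 66.6 CPM with STING-MSC-CM. All groups overlapped, and the resting library of donor ORC was the highest macrophage library for ISG15, UBA7, HERC6 and USP18. The log2 difference of ISG15 from resting MSC-CM was -0.30 (SE 0.45) with TLR-MSC-CM and -0.47 (SE 0.45) with STING-MSC-CM, and that of STING-MSC-CM from TLR-MSC-CM was -0.17 (SE 0.45). Without the resting library of donor ORC the first of these turned to 0.51 and the second to 0.34. In all 3 comparisons edgeR called 0 of the 6, 0 of the 6 had an unadjusted p under 0.05 (against 2.13%, 4.76% and 6.6% of all genes), and 0 passed the thresholds of the study (against 0.625%, 0.565% and 0.618%). DESeq2 called 0 of the 6 in each, against 0%, 0.0332% and 0.219% of all genes. Macrophages with neither cytokines nor medium already had ISG15 at 96.0 CPM (95% exact Poisson interval of the counting error 92.2 to 99.8) and HERC6 at 138 CPM (133 to 142), and those with cytokines alone at 122 CPM (117 to 126) and 178 CPM (173 to 183).

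In synoviocytes the 6 genes stood out in 1 library. With TLR-MSC-CM of donors AG1, ORC and PC, ISG15 was at 5.45, 21.7 and 4.16 CPM. The same libraries had HERC6 at 0.757, 5.41 and 0.806 CPM and USP18 at 2.16, 4.32 and 1.37 CPM. The ORC library was the highest of all 9 synoviocyte libraries for all 6 genes, with UBA7 at 11.5, UBE2L6 at 10.1 and HERC5 at 4.35 CPM. In that library IRF9 was at 45.8 CPM, against 21.8 to 32.1 CPM in the other 8, and IRF7 at 20.4 against 7.25 to 10.2 CPM. The sum of 8 macrophage markers was at 12.8 CPM there, within the 12.6 to 19.6 CPM of all synoviocyte libraries, and CD163 did not exceed 0.131 CPM in any of them.

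The log2 difference of ISG15 with TLR-MSC-CM was 1.15 (SE 0.48, unadjusted p 0.03) and that of USP18 was 0.82 (SE 0.35, unadjusted p 0.035). EdgeR called 0 of the 6, and the 2 genes with an unadjusted p under 0.05 stand against 10% of all genes in that comparison. None passed the thresholds of the study, against 0.487%, and DESeq2 called 0 of the 6 and 0.0137% of all genes. Without the ORC library the difference was 0.07 for ISG15 and 0.27 for USP18. All 6 genes overlapped between the groups. TRIM25 and IRF9 did not overlap, with log2 differences of 0.55 (SE 0.16) and 0.49 (SE 0.18) and edgeR adjusted p of 0.494 each. On the higher side 912 of the 14584 genes tested did not overlap. For IRF9 the margin was 25.3 CPM with TLR-MSC-CM of donor PC against 24.8 CPM with resting MSC-CM of donor AG1.

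With STING-MSC-CM, ISG15 was at 5.60, 8.92 and 3.98 CPM in synoviocytes, overlapping resting MSC-CM, with the ORC library again the highest. The log2 difference from resting MSC-CM was 0.41 (SE 0.49) and that from TLR-MSC-CM was -0.74 (SE 0.47), and the second value became 0.35 once the ORC library with TLR-MSC-CM was left out. In neither comparison did edgeR or DESeq2 call any of the 6, and none had an unadjusted p under 0.05 (against 7.6% and 2.02% of all genes) or passed the thresholds of the study (against 0.411% and 0.514%). Synoviocytes with neither cytokines nor medium had ISG15 at 4.55 CPM (3.83 to 5.35) and those with cytokines alone at 5.55 CPM (4.71 to 6.50), within the range of the conditioned libraries.

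In chondrocytes the library that stood out was another one. With STING-MSC-CM of donors AG1, ORC and PC, ISG15 was at 30.4, 4.87 and 3.43 CPM. HERC5 was at 2.05, 0.260 and 0.376 CPM and USP18 at 3.03, 0.632 and 0.414 CPM. HERC6 was at 194 counts in the AG1 library and at 1 and 3 counts in the others, where the 6 libraries with resting MSC-CM or TLR-MSC-CM held 0 to 4 counts. The AG1 library was thus the highest of the 9 chondrocyte libraries for all 6 genes, UBA7 being at 10.5 CPM and UBE2L6 at 23.5 CPM in it. For HERC5 and USP18 the ORC and PC libraries also lay above all 3 resting libraries, at 7 to 17 counts each.

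In the same AG1 library IRF9 was at 63.0 CPM, against 20.7 to 26.5 CPM in the other 8, and IRF7 at 27.04 against 2.09 to 5.63 CPM. Its macrophage markers summed to 40.4 CPM, the highest of the 11 chondrocyte libraries, of which CD68 made up 38.3 CPM, while CD163 was at 0 in every chondrocyte library and CSF1R and MRC1 did not exceed 0.152 and 0.0534 CPM. The part of such cells in the result was not tested.

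The log2 difference of STING-MSC-CM from resting MSC-CM was 1.99 (SE 0.71, unadjusted p 0.021) for ISG15, 2.51 (SE 0.80, unadjusted p 0.012) for HERC5 and 2.78 (SE 0.81, unadjusted p 0.0075) for USP18 in the edgeR fit. With HERC6 these were the 4 of 6 genes with an unadjusted p under 0.05, against 0.909% of all genes, and 3 of them (HERC5, HERC6 and USP18) passed the thresholds of the study, against 0.287% on the higher side. HERC6, with no more than 4 counts in any library with resting MSC-CM or TLR-MSC-CM, passed the filter of 10 counts in total only with the STING-MSC-CM libraries, so its place in these tallies is no support of its own. Of the 6, HERC5 and USP18 did not overlap between the groups, against 2.47%. EdgeR and DESeq2 called 0 of the 6 and 0% of all genes, DESeq2 giving no adjusted p for HERC6. UBA7 and UBE2L6 had log2 differences of 0.39 and 0.24. Of the same transcription factors, IRF7 had 1.49 (SE 0.73) and IRF9 0.62 (SE 0.31). None of the 4 transcription factors had an unadjusted p under 0.05. IRF7 and IRF9 were higher in 3 of 3 donors of medium, but by far the most in AG1. IRF7 was at 27.04 against 5.29 CPM in AG1, 3.01 against 2.94 CPM in ORC and 4.44 against 3.62 CPM in PC. IRF9 was at 63.0 against 26.5 CPM in AG1, 24.4 against 20.7 CPM in ORC and 24.96 against 24.04 CPM in PC. Without the AG1 library 0 of the 6 passed the thresholds of the study, with 0.41 for ISG15, 1.06 for HERC5 and 1.44 for USP18.

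Against TLR-MSC-CM, STING-MSC-CM gave log2 differences of 1.95 (SE 0.71, unadjusted p 0.022) for ISG15 and 2.81 (SE 0.80, unadjusted p 0.0064) for USP18 in chondrocytes. USP18 passed the thresholds of the study, against 0.203% on the higher side, and did not overlap, against 2.49%. HERC6 passed them as well, through the 194 counts of the AG1 library, and its groups otherwise met at 1 count each, which is no separation. Counting HERC6, 3 of the 6 had an unadjusted p under 0.05, against 0.811%. Without the AG1 library 0 of the 6 passed those thresholds here too, with 0.37 for ISG15 and 1.48 for USP18. TLR-MSC-CM itself left chondrocytes at 3.98, 3.01 and 2.68 CPM of ISG15, a log2 difference of 0.04 (SE 0.71) from resting MSC-CM. None of the 6 had an unadjusted p under 0.05 there, against 0.559% of all genes, or passed the thresholds of the study, against 0.308%, and both tools called 0.

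Chondrocytes given medium of donor ORC had the lowest UBA7 and UBE2L6 with every medium. Whether the medium donor or the cytokine exposure of these 3 libraries underlay this was not tested. UBA7 was at 2.14 to 3.31 CPM in those 3 libraries and at 5.53 to 10.5 CPM in the other 6, and UBE2L6 at 6.47 to 9.40 CPM against 12.7 to 23.5 CPM. ISG15 did not follow this split, at 3.01 to 4.87 CPM against 2.22 to 30.4 CPM. Without these 3 libraries, 4 of the 6 genes passed the thresholds of the study when STING-MSC-CM was compared to resting MSC-CM, and ISG15 was at a log2 difference of 2.57, while with TLR-MSC-CM ISG15 was at 0.23 and 0 of the 6 passed. Each group then held the AG1 and PC libraries only, so the fit leans on the AG1 library that stood out with STING-MSC-CM. The 4 genes include HERC6, which is no support of its own, and no share of all genes was computed for this fit. The excess of UBE2L6 in chondrocytes over synoviocytes was 1.77 without the resting library of donor ORC. Chondrocytes with neither cytokines nor medium had ISG15 at 7.68 CPM (6.65 to 8.82), above every conditioned chondrocyte library but that of donor AG1 with STING-MSC-CM, and those with cytokines alone had it at 5.49 CPM (4.78 to 6.27).

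Whether the response to a medium differed between joint cell types was tested as an interaction over 27 libraries and 16584 genes. EdgeR and DESeq2 called 0 of the 6 genes in all 6 interactions, where DESeq2 called at most 0.0241% of all genes (0.00603%, 0.0121% and 0.0241% for STING-MSC-CM in chondrocytes over synoviocytes, macrophages over synoviocytes and macrophages over chondrocytes). For STING-MSC-CM in chondrocytes over synoviocytes, HERC5 (2.67, SE 0.75), HERC6 and USP18 (2.69, SE 1.05) had an unadjusted p under 0.05, against 1.74% of all genes. For STING-MSC-CM in macrophages over chondrocytes, ISG15 (-2.49, SE 0.91), HERC5 (-2.43, SE 0.73), HERC6 and USP18 (-3.06, SE 0.96) had one, against 3.59%. HERC6 rests here on the AG1 library too. Without the AG1 library the first set stood at 1.07 for HERC5 and 1.27 for USP18, and the second at -0.88 for ISG15, -0.84 for HERC5 and -1.63 for USP18. In the other 4 interactions 0 of the 6 had an unadjusted p under 0.05, against 4.38% of all genes for STING-MSC-CM in macrophages over synoviocytes and, for TLR-MSC-CM, 1.72%, 3.99% and 2.64% for the same order of cell types.

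MSC and joint cells were not fitted together and differed in their treatment. An order by mean CPM across them cannot tell cell type, cell source and treatment apart. Ordered by mean level over the 13 replicated groups, ISG15 was highest in MSC with the STING agonist (1531 ± 781 CPM, SD, n = 3) and in MSC with the TLR3 agonist (1083 ± 995 CPM, n = 3). Macrophages followed at 132 ± 97.7 CPM with resting MSC-CM, 111 ± 38.5 CPM with TLR-MSC-CM and 96.5 ± 26.1 CPM with STING-MSC-CM. Of the 12 pairs of neighbours in this order only 2 did not overlap, the macrophages with STING-MSC-CM over the chondrocytes with STING-MSC-CM (12.9 ± 15.2 CPM) and the synoviocytes with resting MSC-CM (4.55 ± 0.512 CPM) over the chondrocytes with TLR-MSC-CM (3.22 ± 0.675 CPM). Chondrocytes with resting MSC-CM were lowest at 3.14 ± 0.851 CPM.

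HERC5 broke this order, being highest in macrophages with STING-MSC-CM at 53.4 ± 10.2 CPM and lower in MSC with the STING agonist at 30.1 ± 5.32 CPM, a step at which macrophages with TLR-MSC-CM (43.9 ± 4.18 CPM) did not overlap those MSC. HERC6 was highest in MSC with the STING agonist at 294 ± 1.66 CPM, clear of the macrophages with resting MSC-CM at 184 ± 72.6 CPM. For each of the 6 genes 1 or 2 of the 12 neighbouring pairs did not overlap. Neighbours in a ranking by mean are close by construction, so these counts say nothing of groups farther apart. ISG15, for example, was at no less than 758 CPM in MSC with the STING agonist. It reached no more than 244 CPM in macrophages with resting MSC-CM, 2 places lower in the order.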

How the data were processed

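Polyadenylated RNA was sequenced, and the submitters' processing notes name cutadapt 1.12, STAR, HTSeq 0.11.0, DESeq2 and the equine build EquCab3.0. The authors deposited raw read counts per gene and library for protein-coding genes of the Ensembl annotation, in 1 table for MSC and 1 for all joint cells, with replicates not pooled. Counts of 7 digits are written there with 3 significant digits. All sample columns were mapped from the labels, and 0 were left unused. Totals of 23525704 to 54103873 counts put the floor of 3 counts at 0.0554 to 0.128 CPM, and Poisson intervals cover counting error only.

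Genes with at least 10 counts in total were fitted with the quasi-likelihood test of edgeR 4.0.16 (TMM scaling, prior count 0.125) in R 4.3.3, within MSC (untreated, TLR3 and STING libraries together, with CPG in a fit of its own over all 12 libraries), within each joint cell type, and over joint cells for cell types and interactions. Benjamini-Hochberg adjustment ran over all genes at a threshold of 0.05, and DESeq2 1.42.0 was the other tool. A gene counts as past the study's thresholds when its unadjusted p is no higher than 0.05 and its log2 fold change reaches 2 in size. Both values come from the edgeR fit unless another tool is named. The study used DESeq2, so its gene lists need not match the counts given here. The scripts were tested on simulated data.

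The members, lists and markers were chosen with earlier results of these data known. The text names the 6 genes, the pathway lists, the 5 genes most like ISG15 (Pearson correlation on log2(CPM + 1), mean of at least 1 CPM) and the nearest protein-coding genes on each side that the tables hold, taken from the RefSeq order of the assembly in the reference table (not the authors' build).

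By design, libraries of 1 group differ in the MSC donor only. Whether they came from separate cultures is not given, so p-values measure the spread between these libraries. Donor labels recur in every group. The correlation of deviations from the group means between libraries of the same donor was 0.666 to 0.913 in MSC, 0.609 to 0.914 in chondrocytes and 0.389 to 0.638 in macrophages, and -0.428 to 0.426 in synoviocytes. The labels name the donor, so they pair the libraries, and a fit with the donor as a replicate block was an alternative beside RLE scaling, other count filters, DESeq2, another prior count and leaving out each library. In MSC the block left the edgeR calls at 0 and moved those of DESeq2, as the closing part gives. Sequences, gene lengths and coordinates were not used here. A gene of the pathway lists is not reported here.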

Additional observations from a re-analysis of the deposited data

How the results depend on the processing

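Depth limits HERC5, HERC6 and USP18 in chondrocytes, where most libraries held fewer than 20 counts. The members called by edgeR in the TLR3 comparison of MSC moved from 0 to 4 with DESeq2 and to 3 with DESeq2 and the donor as a replicate block, and those of the STING comparison from 0 to 5 and to 6, while edgeR with the replicate block called 0 in both. The cause was not tested. Over the fits that left out 1 library, the members called in the TLR3 comparison ran from 0 to 5, 5 being reached without donor 92 of the TLR3 group. The members past the thresholds of the study in chondrocytes ran from 0 to 4 for STING-MSC-CM against resting MSC-CM and from 0 to 3 against TLR-MSC-CM, 0 in each being without donor AG1 of STING-MSC-CM. The latter count was 1 with the filter filterByExpr and 1 with DESeq2. The blocked edgeR fit changed no other call within a cell type. With the TLR3 library of donor 92 left aside, edgeR called 5 members in the STING comparison. The alternatives chosen after seeing the data were this one, DESeq2 with the block and chondrocytes without the 3 libraries with medium of ORC (4 and 3 members past the thresholds of the study for STING-MSC-CM against resting MSC-CM and against TLR-MSC-CM). The fit without ORC still holds the AG1 library that stood out. No share of all genes was computed for that fit or for DESeq2 with the block. The log2 difference of UBA7 with CPG turned to 0.034 with the block and to 0.062 with DESeq2 and the block. Of the 5 genes most like ISG15 in MSC, 3 were shared at a pseudocount of 0.1. Leaving out 1 library turned the sign of 26 fitted differences, none past a threshold, and the lowest and highest values follow. For STING against TLR3 in MSC they were -0.15 and 1.117 for ISG15, -0.42 and 0.95 for UBA7, -0.14 and 0.93 for UBE2L6 and -0.41 and 1.17 for HERC5. With CPG they were -0.30 and 0.21 for ISG15, -0.52 and 0.34 for UBA7, -0.16 and 0.37 for UBE2L6, -0.12 and 0.45 for HERC5 and -0.91 and 1.05 for HERC6. For ISG15 in joint cells they were -1.14 and 0.35 for STING-MSC-CM against TLR-MSC-CM in synoviocytes, -0.16 and 0.23 for TLR-MSC-CM in chondrocytes, and -0.66 and 0.51 for TLR-MSC-CM, -0.79 and 0.34 for STING-MSC-CM and -0.31 and 0.19 between the 2 media in macrophages. For the interactions of ISG15 they were -0.010 and 2.03 (chondrocytes over synoviocytes, STING-MSC-CM) and -0.67 and 0.48 (macrophages over chondrocytes, TLR-MSC-CM). In the other alternatives 452 fitted differences kept direction and call.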
